A study of Rattus norvegicus with 6 samples.

Results

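The genes of extracellular adenosine in rat synovial fibroblast-like cells were described, from the enzymes that make adenosine to the receptors that bind it. The members were 10 genes chosen by symbol: Entpd1, Entpd2 and Nt5e for production, Ada and Adk for breakdown, Slc29a1 for transport, and Adora1, Adora2a, Adora2b and Adora3 as receptors. Each had 1 row among the 17221 transcript rows of the table, 9 of the 10 had at least 1 read, and 6 of the 10 (Entpd1, Nt5e, Ada, Adk, Slc29a1 and Adora2b) passed the filter of 1 CPM (read counts scaled to library size with TMM factors) in both libraries of at least 1 group, as did 9820 rows in all. The other 4 are given as reads, with no test in the main fit.

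Cells that grow out of the joint lining were taken from 2 female Wistar rats with collagen-induced arthritis, the disease that follows immunization with type II collagen. The cells of each rat were cultured in 3 serological settings: fetal bovine serum (FBS), blood serum of animals without stimulation (MS−, AP- in the labels), and blood serum drawn at day 18 from animals whose skin was stimulated mechanically with a needle (MS+, AP+ in the labels, which call the stimulation acupuncture). Each setting thus had 2 libraries, 1 per rat, so n = 2 in every group, and the replicate was the rat that gave the cells. How many animals gave each serum is not given in the sources used here. The MS− donors are arthritic in the title and disease field of the labels but healthy in 1 description, and the study describes their serum both as taken before therapy and as taken from untreated arthritic animals. FBS differs from both sera also in species, so the 2 differences cannot be told apart in any comparison with FBS.

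Cells release ATP when stretched, injured or inflamed. The surface enzymes CD39 (Entpd1) and NTPDase2 (Entpd2) remove its phosphates, and CD73 (Nt5e) turns the resulting AMP into adenosine. Adenosine then acts on 4 G protein-coupled receptors, or enters the cell through the equilibrative transporter ENT1 (Slc29a1), where adenosine kinase (Adk) returns it to AMP or adenosine deaminase (Ada) turns it into inosine. In arthritic joints the pathway is known for its restraint of inflammation, and low-dose methotrexate is thought to act partly through it.

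Library depth was 5463316 to 5991889 reads, and a floor of 3 reads in a library corresponded to 0.491 to 0.551 CPM. The summed level of 11 fibroblast markers was 62834 to 88028 CPM, with Col1a1, Vim and Thy1 high, while Dcn and Lum had at most 5 reads in any library. The 6 lining markers summed to 57.5 to 63.5 CPM in FBS, 79.5 to 88.0 CPM in MS− and 96.9 to 101 CPM in MS+. The rise was that of Cd55, at 13.9 and 16.4, 63.5 and 54.8, and 79.1 and 77.6 CPM in the same order. Pdpn went the other way, at 40.9 and 42.4, 21.2 and 22.2, and 18.6 and 16.5 CPM. The other lining markers had at most 20 reads in any library. Macrophage markers summed to 13.8 to 20.9 CPM, mostly Cd14, and Ptprc, Itgam, Emr1, Aif1 and Cd163 had no read. Lymphocyte markers summed to at most 0.829 CPM and endothelial markers to at most 1.47 CPM, with Cd3e and Cdh5 at 0. The fibroblast sum was 81171 to 88028 CPM in FBS, 62834 to 65441 CPM in MS− and 71282 to 73968 CPM in MS+, and the chondrocyte sum, mostly Acan, was lowest in MS− (1452 to 1827 CPM against 2539 to 3013 CPM elsewhere). Their part in the differences between sera was not tested.

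To show the members' DNA, the 250 bases before the transcript start are printed for Slc29a1 and Ada, the 2 members called in MS+ with the rat in the fit, and for Adora3, which had no read. They were read from RefSeq (assembly GRCr8, not the build of the counts), 5′ to 3′ on the strand of the gene. Slc29a1 lies at chr9:22896849-22897098 (plus strand), Ada at chr3:172842284-172842533 (minus strand) and Adora3 at chr2:196076792-196077041 (plus strand). Capitals mark the GC box, the letters GGGCGG, searched on both strands with overlapping matches counted.
Slc29a1: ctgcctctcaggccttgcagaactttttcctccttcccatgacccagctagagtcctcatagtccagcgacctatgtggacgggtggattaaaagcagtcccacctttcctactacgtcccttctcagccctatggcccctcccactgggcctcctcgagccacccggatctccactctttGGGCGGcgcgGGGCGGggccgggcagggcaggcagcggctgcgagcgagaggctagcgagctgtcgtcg
Ada: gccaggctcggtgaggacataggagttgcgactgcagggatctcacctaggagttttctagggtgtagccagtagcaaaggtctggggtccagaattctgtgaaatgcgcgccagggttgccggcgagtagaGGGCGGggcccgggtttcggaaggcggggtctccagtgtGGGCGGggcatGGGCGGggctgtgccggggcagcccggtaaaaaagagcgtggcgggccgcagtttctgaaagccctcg
Adora3: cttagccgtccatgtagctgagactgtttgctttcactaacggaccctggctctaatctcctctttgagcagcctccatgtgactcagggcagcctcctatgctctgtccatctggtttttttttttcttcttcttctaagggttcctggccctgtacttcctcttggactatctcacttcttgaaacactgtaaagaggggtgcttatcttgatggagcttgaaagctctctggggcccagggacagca
The window of Ada held 3 GC boxes, that of Slc29a1 held 2 and that of Adora3 held none. A promoter entry was found for 9 of the 10 members, all but Adora2a. A GC box was present in 5 of the 6 members that passed the filter (not in Entpd1) and in 1 of the 3 others with an entry (Entpd2), against 30.5% of all 33469 promoters. That share covers promoters whether or not their genes passed the filter, and the share among those that passed was not computed. GC boxes are common in promoters that are rich in G and C, and a match is only a description of the letters.

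With MS+, the transporter Slc29a1 was lower and the deaminase Ada higher than with MS− or FBS, in the cells of both rats. Both differences passed an adjusted test only once the rat was part of the fit or, for Slc29a1 against MS−, in DESeq2. At an adjusted p under 0.05 (Benjamini-Hochberg over all 9820 features, limma on log2(CPM + 1)), none of the 6 tested members passed in MS+ versus MS−, where 0.0204% of all features did. None passed in MS+ versus FBS (9.61% of all features) or in MS− versus FBS (4.81%). At an unadjusted p under 0.05, limma gave 1 member, 1 member and 0 members. DESeq2 called 1, 0 and 0 members, and edgeR and limma-voom none. With the rat as a block, 2 of 6 passed in MS+ versus MS− (10.1% of all features did), 2 of 6 in MS+ versus FBS (28.2%) and none in MS− versus FBS (20.5%). They were Slc29a1, which fell, and Ada, which rose, both times. With the same block, edgeR also called Entpd1 (adjusted p = 0.0479) and limma-voom, an alternative chosen after seeing the data, Nt5e (adjusted p = 0.0485), both lower in MS+ than in FBS. The study states no block. Without the block, the limma p-values rest on the spread between the 2 libraries of a group, pooled over the 3 groups and moderated across features. With the block, they rest on how far the 2 rats disagree on the differences between sera, again moderated across features. A gene's own disagreement between the rats thus enters only in part. How far the animals that gave serum vary cannot be read from either, since their number is not given.

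**Figure D1:**
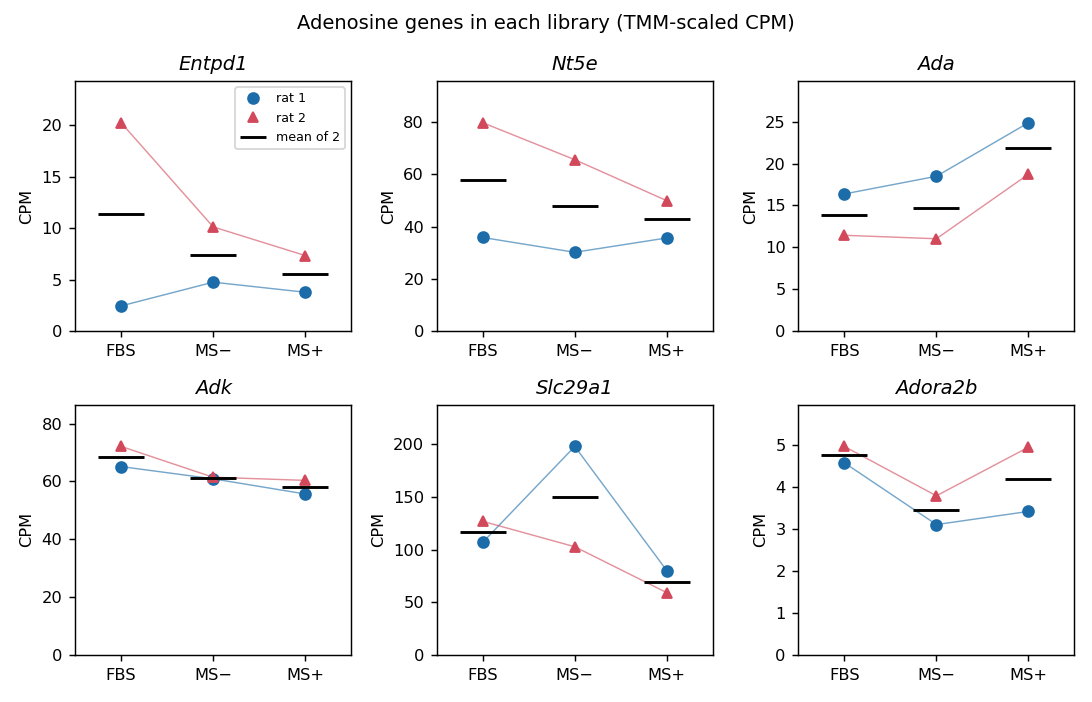
Level in CPM (y axis, from 0, on a scale of its own in each panel) of the 6 members that passed the filter, in FBS, MS− and MS+ (x axis). Circles are the cells of rat 1, triangles those of rat 2, lines join the libraries of a rat and bars are means of 2 libraries. Slc29a1 was lowest and Ada highest in MS+ within each rat, and Entpd1 and Nt5e lay higher in rat 2 in every serum.

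The first step of production is the removal of phosphates from ATP and ADP, by CD39 and NTPDase2. Entpd1 (NM_022587, rn4 chr1:245783750-245887419, plus strand) was at 2.46 and 20.2 CPM in FBS (rat 1 and rat 2), 4.76 and 10.1 CPM in MS−, and 3.78 and 7.34 CPM in MS+, from 15 to 122 reads. The 3 groups overlapped, and in each the library of rat 2 was the higher one. In MS+ the log2 fold change was -0.34 ± 0.80 (SE) against MS− (adjusted p = 0.897, limma) and -0.44 ± 0.80 against FBS (adjusted p = 0.765). The direction against FBS was opposite in the 2 rats, with log2 changes of 0.47 in rat 1 and -1.35 in rat 2. Between MS− and FBS the log2 difference was -0.10 ± 0.80 (adjusted p = 0.962, limma), a difference smaller than its own error.

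Entpd2 (NM_172030, rn4 chr3:3564380-3569801, plus strand) was near the limit of detection and did not pass the filter. It had 1 and 4 reads in FBS, 4 and 8 in MS−, and 3 and 9 in MS+, which is 0.164 to 1.65 CPM. Only the libraries of rat 2 in MS− and MS+ reached 1 CPM, and in every serum rat 2 had more reads than rat 1.

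CD73 completes the production of adenosine outside the cell and is a common surface marker of cultured stromal cells. Nt5e (NM_021576, rn4 chr8:93591630-93635458, plus strand) was at 35.8 and 79.7 CPM in FBS, 30.2 and 65.6 CPM in MS−, and 35.7 and 49.9 CPM in MS+. All libraries of rat 2 lay above all libraries of rat 1, so the sera overlapped fully. The means were 57.8 ± 31.0 CPM (SD, n = 2) in FBS, 47.9 ± 25.1 in MS− and 42.8 ± 10.1 in MS+. The log2 fold change of MS+ was -0.08 ± 0.45 against MS− (adjusted p = 0.962, limma) and -0.34 ± 0.45 against FBS (adjusted p = 0.675), and that of MS− against FBS was -0.26 ± 0.45 (adjusted p = 0.800). Against MS−, rat 1 was higher by 0.23 and rat 2 lower by 0.39 on the log2 scale.

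Adenosine deaminase had the larger difference of the 2 breakdown enzymes in both comparisons with MS+, and the smaller in MS− versus FBS. Ada (NM_130399, rn4 chr3:154636530-154660637, minus strand) was at 16.4 and 11.4 CPM in FBS, 18.5 and 11.0 CPM in MS−, and 24.9 and 18.7 CPM in MS+, from 61 to 138 reads. Both MS+ libraries were above every other library, although the MS+ library of rat 2 exceeded the MS− library of rat 1 only narrowly. The log2 fold change of MS+ against MS− was 0.56 ± 0.29 (ratio of the means 1.48), which did not pass in limma (adjusted p = 0.436) and passed with the rat as a block (SE 0.16, adjusted p = 0.0394). The alternatives gave adjusted p between 0.0345 and 0.859. Against FBS it was 0.62 ± 0.29 (ratio 1.57, adjusted p = 0.216), and 0.00985 was the adjusted p with the block, with a range of 0.00592 to 0.568 over the alternatives. Within rats, MS+ was above MS− by 0.41 in rat 1 and 0.71 in rat 2, and above FBS by 0.57 and 0.66 (log2). MS− and FBS differed by 0.06 ± 0.29 (adjusted p = 0.936, limma; 95% interval -0.62 to 0.74).

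Adenosine kinase is the enzyme with the higher affinity for adenosine, and its transcript was nearly level. Adk (NM_012895, rn4 chr15:3071412-3458891, minus strand) was at 65.2 and 72.1 CPM in FBS, 60.9 and 61.5 CPM in MS−, and 55.7 and 60.4 CPM in MS+. The groups did not overlap in any of the 3 comparisons, yet the gaps were small. The log2 fold change of MS+ was -0.08 ± 0.11 against MS− (adjusted p = 0.793, limma; 95% interval -0.33 to 0.17) and -0.24 ± 0.11 against FBS (adjusted p = 0.199, with the block 0.0948). MS− against FBS gave -0.16 ± 0.11 (adjusted p = 0.439). A change of 2-fold lies outside all 3 intervals.

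Read against each other, the breakdown enzymes give a ratio that does not depend on how libraries were scaled. For every 100 reads of Adk there were 25.1 and 15.9 reads of Ada in FBS, 30.3 and 17.9 in MS−, and 44.7 and 31.0 in MS+. The MS+ libraries were the highest within each rat, and the lower of them was just above the highest of the rest. The ratio compares reads, not molecules, since the lengths of the transcripts were not used.

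ENT1 lets adenosine cross the membrane down its gradient and is the target of dipyridamole. Slc29a1 (NM_031684, rn4 chr9:11000054-11014914, plus strand) had the largest difference among the tested members in MS+ versus MS−. It was at 107 and 127 CPM in FBS, 198 and 103 CPM in MS−, and 80.0 and 59.1 CPM in MS+, from 322 to 1082 reads. Both MS+ libraries lay below every other library, while MS− spanned the range of FBS, with its rat 1 library the highest of all. The mean level was 69.5 ± 14.8 CPM (SD, n = 2) with MS+, 150.3 ± 67.4 CPM with MS− and 117 ± 14.1 CPM with FBS.

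The log2 fold change of Slc29a1 in MS+ versus MS− was -1.04 ± 0.30 (95% interval -1.75 to -0.33), with -1.30 in rat 1 and -0.79 in rat 2. It passed the thresholds of the study (2-fold at an unadjusted p under 0.05), as 1 of the 6 tested members and 1.25% of all features did, and not the adjusted threshold (adjusted p = 0.208, limma). With the rat as a block it passed both (adjusted p = 0.00162), DESeq2 gave an adjusted p of 0.0356, and the range over all alternatives was 0.000798 to 0.546. Leaving out 1 library at a time gave log2 fold changes of -1.51 to -0.57. Without the MS− library of rat 1 it was -0.57 and without the MS+ library of rat 2 it was -0.83, and in both cases the call at the study thresholds was lost. Against FBS, Slc29a1 was lower by a log2 fold change of -0.75 ± 0.30 (adjusted p = 0.161, limma), with the block an adjusted p of 0.00468, and -0.41 and -1.09 in the 2 rats, with a range of 0.00305 to 0.456 over the alternatives. MS− and FBS differed by 0.29 ± 0.30 (adjusted p = 0.636), upward in rat 1 (0.88) and downward in rat 2 (-0.30). In bulk RNA, fewer cells of a type and less RNA per cell cannot be told apart.

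No member passed the study thresholds in MS+ versus FBS, where 5.38% of all features did, or in MS− versus FBS, where 3.66% did. The libraries of the 2 groups did not overlap for 3 of 6 tested members in MS+ versus MS− (45.8% of all features), the same 3, Ada, Adk and Slc29a1, in MS+ versus FBS (56.7%), and 2 of 6, Adk and Adora2b, in MS− versus FBS (51.6%). With 2 libraries per group a lack of overlap was thus common, and the members' shares were near those of all features. The median log2 fold change of the 6 tested members was -0.08, -0.29 and -0.13 in the 3 comparisons, beside medians over all features of -0.0058, 0.00078 and 0.014. By absolute size, the difference of Slc29a1 in MS+ versus MS− exceeded that of 98.8% of the features tested, and the difference of Ada exceeded that of 91.5%.

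**Figure D2:**
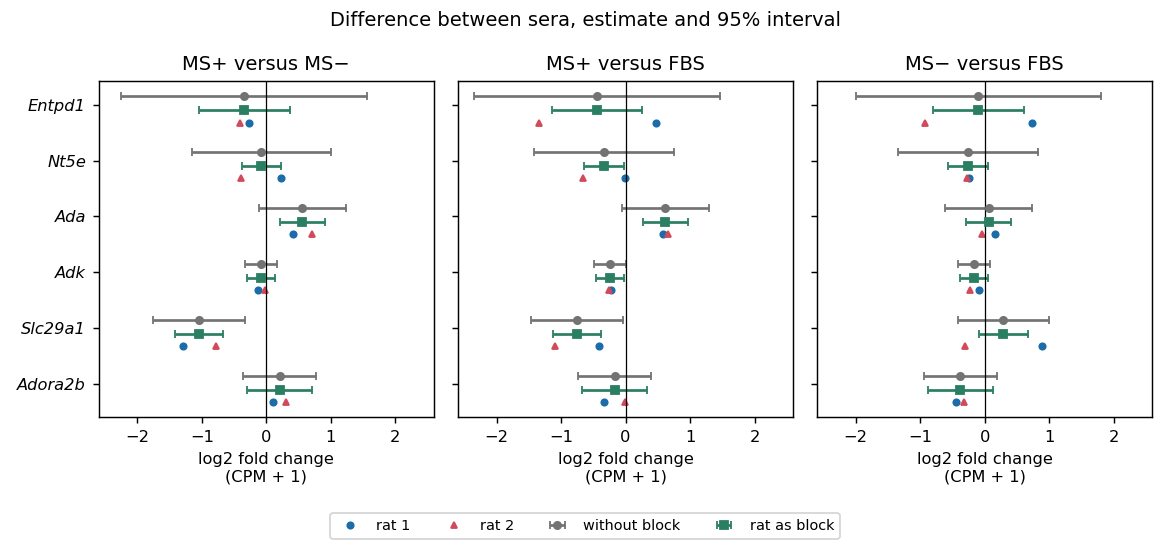
Log2 fold change on the log2(CPM + 1) scale (x axis) of the 6 tested members (y axis) in the 3 comparisons. Grey circles are limma estimates without the block and green squares those with the rat as a block, both with 95% intervals, and the small points below them are the changes within rat 1 and rat 2. Against MS−, the interval of Slc29a1 lies below 0 in both fits, and that of Ada lies above 0 only with the block.

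Among the receptors, Adora2b was the only member with reads in every library at more than the floor. Its product, the low-affinity receptor that raises cyclic AMP, is known on fibroblasts. Adora2b (NM_017161, rn4 chr10:48421595-48437967, plus strand) had 28 and 30 reads in FBS, 17 and 21 in MS−, and 19 and 27 in MS+, which is 4.58 and 4.97, 3.11 and 3.80, and 3.42 and 4.96 CPM. FBS was above MS− in both rats, and MS+ spanned the gap between them. The log2 fold change was 0.21 ± 0.24 for MS+ versus MS− (adjusted p = 0.745, limma; 95% interval -0.36 to 0.78), -0.17 ± 0.24 for MS+ versus FBS (adjusted p = 0.687) and -0.38 ± 0.24 for MS− versus FBS (adjusted p = 0.424). The block called none of these.

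The other receptors were at or near 0. Adora1 (NM_017155, rn4 chr13:47160292-47192805, minus strand), whose product lowers cyclic AMP, had 1 and 0 reads in FBS, 4 and 1 in MS−, and 2 and 2 in MS+. Adora2a (NM_053294, rn4 chr20:13815719-13834131, minus strand), the receptor through which adenosine restrains leukocytes, had 0 and 0 reads in FBS, 1 and 0 in MS−, and 2 and 1 in MS+. Only 1 library, rat 1 in MS−, held more than 3 reads of Adora1, and no library held more than 3 of Adora2a, so no fold is given for either.

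Adora3 (NM_012896, rn4 chr2:201157782-201161425, plus strand), whose product also lowers cyclic AMP and is known chiefly from immune cells, had 0 reads in all 6 libraries. At this depth that allows a level of up to 0.491 to 0.551 CPM per library, and a difference in the Adora3 transcript between the cultures was not detectable. No row of the 10 members overlapped another row, and overlap is 1 reason for which the authors' counting drops reads. The G protein gene Gnas, on the pathway lists described below, had 0 reads over its 4 rows, and its listed row does overlap another. The cause was not tested, and other ways of losing reads were not examined. Floors and counts cover counting error only.

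The production enzymes differed between the cells of the 2 rats in every serum. Entpd1 was higher in rat 2 by ratios of 8.24 in FBS, 2.13 in MS− and 1.94 in MS+, and Nt5e by 2.22, 2.17 and 1.40. Ada went the other way, with rat 2 at 0.699, 0.597 and 0.753 of the level in rat 1. Of the 6 tested members, 5 differed in the same direction between the rats in all 3 sera, Slc29a1 being the exception, while 42.4% of all features did so. These are descriptions without a test, since each rat gave 1 culture per serum.

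Among the muscle markers, the myosin heavy chain genes Myh1 and Myh4 lay well higher in rat 2 in every serum, and the others did not. Myh1, a myosin heavy chain of fast skeletal muscle, was at 24.2, 47.6 and 19.6 CPM in rat 1 (FBS, MS− and MS+) and at 271, 209 and 88.3 CPM in rat 2. Myh4 was at 3.27, 5.12 and 1.62 CPM in rat 1 and at 19.7, 17.4 and 8.99 CPM in rat 2. Over the whole list, 2 of 6 muscle markers (Myh1 and Myh4) were higher in rat 2 in all 3 sera and 2 (Acta1 and Ckm) were lower. Acta1 was at 1113, 912 and 1200 CPM in rat 1 and at 929, 766 and 1026 CPM in rat 2. Ckm had at most 4 reads in any library. The summed level, mostly Acta1, was 974 to 1228 CPM in rat 1 and 997 to 1227 CPM in rat 2, and Myl1 was at 0. Of 11 fibroblast markers 4 were higher in rat 2 in all 3 sera and none lower. Their part in the difference between rats was not tested.

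**Figure D3:**
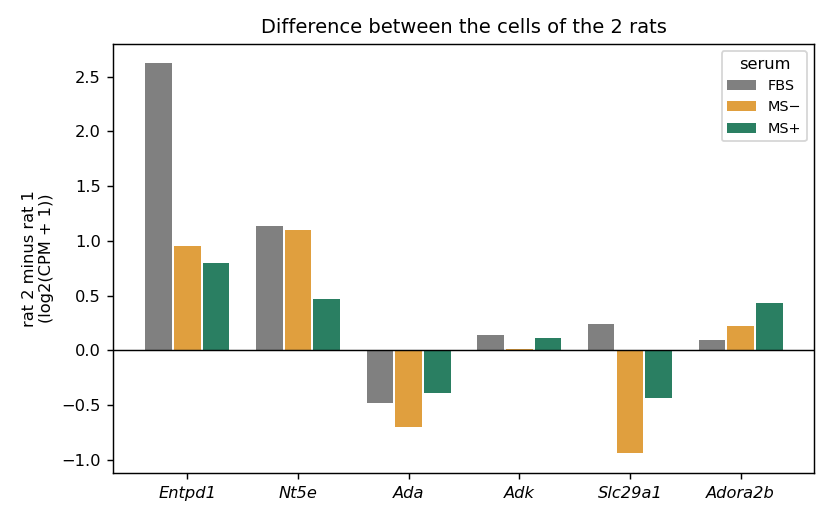
Difference between the rats (rat 2 minus rat 1, in log2(CPM + 1), y axis) for the 6 tested members (x axis) in FBS, MS− and MS+, each bar from 1 library per rat, so that no error can be drawn. Entpd1 and Nt5e are above 0 and Ada is below 0 in every serum, and Slc29a1 changes sign between FBS and the other sera.

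The neighbours of these genes in the pathway were taken from lists of 92 symbols present in the table, 64 of which were tested. In MS+ versus MS− none of the 64 passed the adjusted threshold in limma (9 at an unadjusted p under 0.05), edgeR or limma-voom, DESeq2 called 1, and with the block 7 did, 3 higher and 4 lower (10.1% of all features). In MS+ versus FBS 7 passed, 5 higher and 2 lower (9.61% of all features), and 18 with the block (28.2%), and without any 1 of the 6 libraries between 0 and 2 did. In MS− versus FBS 1 passed, P2rx5, an ATP-gated channel, against 4.81% of all features, with 13 higher and 2 lower under the block (20.5% of all features), 2 in DESeq2, 0 in edgeR and limma-voom, and 0 in limma without either library of MS− or of MS+. The shares called in the fits with the block were thus near those of all features. The median log2 fold change of the 64 was 0.0058, 0.064 and 0.065 in the 3 comparisons.

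Of the 4 equilibrative transporters, 2 passed the study thresholds in MS+ versus MS−, where 1.25% of all features did, in opposite directions: Slc29a1 was lower and Slc29a4 (ENT4, which carries adenosine and monoamines) was higher. Slc29a4 was at 1.15 and 1.82 CPM in FBS, 0.915 and 2.17 CPM in MS−, and 5.22 and 11.0 CPM in MS+, from low reads. Both MS+ libraries stood above all the others, and the log2 fold change was 1.81 ± 0.40 against MS− (adjusted p = 0.144, limma; with the block 0.000528) and 1.81 ± 0.40 against FBS (adjusted p = 0.0390). Slc29a2 (ENT2) was at 42.1 to 51.4 CPM and Slc29a3 (ENT3), an intracellular carrier, at 26.4 to 38.3 CPM. Their log2 fold changes in MS+ versus MS− were 0.25 ± 0.11 (adjusted p = 0.349, limma) and -0.38 ± 0.13 (adjusted p = 0.271).

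**Figure D4:**
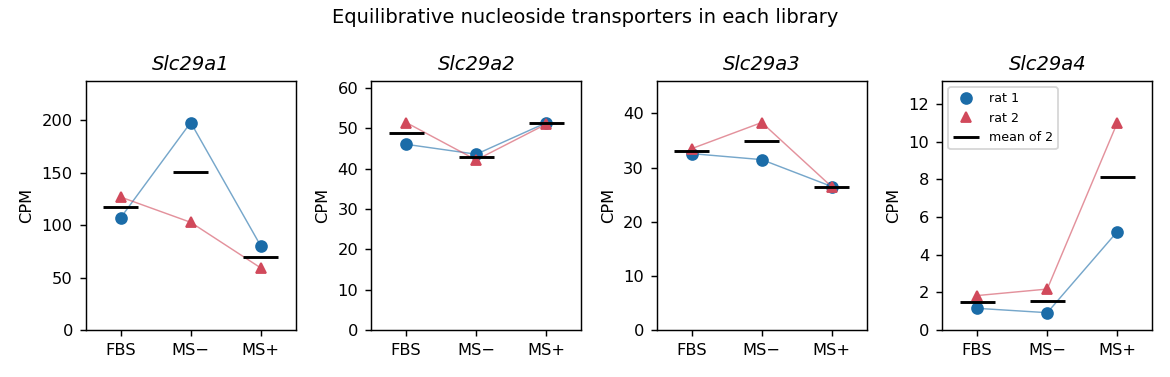
Level in CPM (y axis, from 0, its own scale in each panel) of the 4 equilibrative nucleoside transporters in FBS, MS− and MS+ (x axis), with circles for rat 1, triangles for rat 2 and bars for the mean of 2 libraries. In MS+, Slc29a1 has its 2 lowest libraries (80.0 and 59.1 CPM) and Slc29a4 its 2 highest (5.22 and 11.0 CPM).

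After Slc29a4, the 3 pathway genes with the largest change past the adjusted threshold in MS+ versus FBS were Enpp2, Adcy3 and Alpl. Adcy3, an adenylyl cyclase of the kind that Adora2b drives through its G protein, was at 45.2 and 43.3 CPM in FBS, 45.2 and 37.2 CPM in MS−, and 20.2 and 15.8 CPM in MS+. It fell against FBS by a log2 fold change of -1.26 ± 0.16 (adjusted p = 0.00840, limma) and was at -1.16 ± 0.16 against MS− (adjusted p = 0.0917, with the block 6.4e-05). The cyclase Adcy6 went the other way against FBS (0.46 ± 0.10, adjusted p = 0.0340, limma), from 126 and 144 CPM to 188 and 182 CPM. Adcy5, given below, was also higher in MS+ than in FBS. Of 14 tested G protein and cyclase genes, 6 had positive and 8 negative changes in MS+ versus FBS, with 1 past the adjusted threshold in each direction. Enpp2 (autotaxin, of the family that cleaves extracellular nucleotides, though best known for making lysophosphatidic acid) rose against FBS by 1.77 ± 0.35 (adjusted p = 0.0272, limma), from 1.31 and 1.49 CPM to 10.6 and 4.77 CPM. In MS− it was at 2.93 and 3.07 CPM, and the difference between MS+ and MS− was 1.03 ± 0.35 (adjusted p = 0.249, limma; with the block 0.0343). Alpl, an alkaline phosphatase that can also release adenosine from AMP, rose by 1.23 ± 0.26 (adjusted p = 0.0326, limma), from 210.0 and 120.2 CPM in FBS to 409 and 344 CPM in MS+. MS− lay between FBS and MS+ for Alpl, at 355 and 278 CPM.

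The nucleotide receptors bind ATP and other nucleotides outside the cell, and the 3 tested ones with the highest mean CPM, which was not set per length, are given by value. P2ry6 was at 78.7 and 42.3 CPM in FBS, 85.4 and 60.0 CPM in MS−, and 79.3 and 54.5 CPM in MS+. P2rx4 was at 59.3 and 43.4, 95.7 and 55.0, and 84.3 and 56.7 CPM in the same order, and P2ry2 at 38.3 and 35.6, 43.4 and 39.8, and 38.6 and 22.8 CPM. None of these 3 passed in limma, and with the block P2rx4 was higher than in FBS with MS− (log2 fold change 0.51, adjusted p = 0.00374) and with MS+ (0.44, adjusted p = 0.00723). P2rx5 was at 4.42 and 3.81 CPM in FBS, 8.05 and 9.40 CPM in MS−, and 7.21 and 6.79 CPM in MS+. Its log2 fold change in MS− versus FBS was 0.93 ± 0.19 (adjusted p = 0.0466, limma).

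The adenylyl cyclase Adcy5 was the 1 pathway gene past the study thresholds in MS− versus FBS. It was at 14.4 and 34.5 CPM in FBS, 56.0 and 100.5 CPM in MS−, and 38.2 and 65.0 CPM in MS+. The libraries of FBS lay below the others, and the log2 fold change of MS− against FBS was 1.70 ± 0.46 (adjusted p = 0.0932, limma; with the block 1.7e-07). That of MS+ against FBS, 1.12 ± 0.46, passed the study thresholds too (unadjusted p = 0.0441 and adjusted p = 0.169, limma; with the block 1.0e-05). MS+ against MS− gave -0.58 ± 0.46 (adjusted p = 0.617, limma; with the block 0.00886). Xdh, the oxidase that makes uric acid in purine breakdown, passed the study thresholds in MS+ versus FBS (1.25 ± 0.37, adjusted p = 0.0825, limma; with the block 0.00218), and its row overlaps that of Srd5a2, so its counts are uncertain.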

How the data were processed

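Poly(A)-selected RNA of 6 cultures (3 sera, 2 rats) was sequenced. Per the labels and the study's methods, reads were aligned to rn4 with Bowtie2 (2.1.0, from the submitters' processing notes) and counted per transcript with HTSeq (0.5.4p3) in its intersection-nonempty mode, which drops reads shared by overlapping transcripts. Strand use is not given in the sources used here. The values that the authors deposited are a normalised signal, CPM scaled by edgeR's TMM factors. All columns of the table were used. Dividing each by the value of 1 read gave whole reads for 100% of values within 1e-06 reads, and depth was 5463316 to 5991889 reads. Coordinates of members are those of rn4 written 1-based, and the table gives spans without exons.

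Rows were kept where both libraries of at least 1 group reached 1 CPM (9820 of 17221). Differences were tested with limma 3.58.1 (lmFit, eBayes with trend, two-sided; R 4.3.3) on log2(CPM + 1), a scale that understates changes of low genes, in all 6 libraries with serum as the term. The study ran limma-voom on its counts. Calls used a Benjamini-Hochberg adjusted p under 0.05, or the study's thresholds of 2-fold at an unadjusted p under 0.05. Intervals of differences are 95% intervals of the fit, errors of log2 fold changes are SE, and levels are mean ± SD of 2 libraries. The fits without the block were tried on simulated data that held no difference between rats. The fits with the block were not tried in this way.

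Replicate numbers pair the libraries, since per the labels every group holds cells of the same 2 rats. The rat 2 minus rat 1 difference correlated across the 9820 features by 0.62 between FBS and MS−, 0.49 between FBS and MS+, and 0.59 between MS− and MS+. The rat was therefore also fitted as a block. No library was a copy of another of its group (chi-square per degree of freedom between their reads, 13.6 to 15.1).

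Alternatives were edgeR 4.0.16 and DESeq2 1.42.0 on the recovered reads, limma-voom, a pseudocount of 0.1, no filter and a stricter one (1 CPM in every library), DESeq2 size factors, library totals, the sum of rows per symbol, the block, and each library left out. limma-voom with the block was added after seeing the data. All 10 members are named. From the pathway lists, the text names per comparison at most 4 genes past the adjusted p and at most 4 past the study thresholds, by size of change, and at most 3 nucleotide receptors and 3 transporters by mean level. Adcy6 is named in addition, beside Adcy3. The members and lists were chosen with earlier results of these data known. Promoters came from RefSeq (GRCr8) by symbol. Lengths were not used, so CPM values of different genes are not on 1 scale.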

Additional observations from a re-analysis of the deposited data

Results flagged for a closer look

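In 5 cases a member moved in opposite directions in the cells of the 2 rats, and with 1 library per rat and serum the difference between the rats was not tested. Each value here is the log2 change in rat 2 minus that in rat 1. For Entpd1 it was -1.82 in MS+ versus FBS (0.47 in rat 1, -1.35 in rat 2) and -1.67 in MS− versus FBS (0.74 and -0.93). For Slc29a1 it was -1.18 in MS− versus FBS, where the transporter was higher in rat 1 (0.88) and lower in rat 2 (-0.30). For Nt5e it was -0.62 in MS+ versus MS− (0.23 and -0.39), and for Ada it was -0.21 in MS− versus FBS (0.17 and -0.05), the smallest of the 5. In MS+ versus MS− and MS+ versus FBS, Slc29a1 and Ada kept their direction in both rats.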

How the results depend on the processing

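Over all alternatives, 294 of 324 values of single members kept their direction and their side of the adjusted threshold, 15 moved past it and 15 changed direction, the last only when a library was left out. Part of this agreement was fixed in advance. Each member has 1 row, so summing rows per symbol repeats the fold change of the main fit. The block in limma, the other filters and leaving out a library of the group not compared also leave the fold change as it was. The tally thus overstates how far direction was put to the test. Values that changed direction include Entpd1 and Nt5e in MS+ versus FBS, each called lower in 1 fit with the block and positive without rat 2 of FBS (0.87 and 0.23). Members past the adjusted threshold numbered 0 in each comparison in limma without a block. With the replicate block there were 2 in MS+ versus MS− (limma, edgeR and limma-voom alike, and 1 in DESeq2 without it), and in MS+ versus FBS 2 in limma and 3 in edgeR and limma-voom. The block changed no member's call in MS− versus FBS. The count at the study thresholds was 0 to 1 in each comparison over the left-out libraries. It fell from 1 to 0 in MS+ versus MS− without rat 1 of MS− or rat 2 of MS+, and rose from 0 to 1 in both comparisons with FBS without rat 1 of FBS.

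Pathway genes past the adjusted threshold were 7 with the block in MS+ versus MS− (limma, edgeR, limma-voom) and 1 in DESeq2, against 0. In MS+ versus FBS they were 18 with each block fit and 2 with no filter, against 7, and 0 to 2 over the left-out libraries. In MS− versus FBS they were 15 with the block in limma and edgeR, 13 in limma-voom, 2 in DESeq2, and 0 with no filter, library totals, edgeR or limma-voom, against 1, and 0 to 1 over the left-out libraries. The causes were not tested.

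Direction depended on single libraries as follows, as ranges of the log2 fold change with 1 library left out. In MS+ versus MS−, Entpd1 ranged from -0.82 to 0.13, Nt5e from -0.62 to 0.47 and Adora2b from -0.0054 to 0.42. In MS+ versus FBS, Entpd1 ranged from -1.75 to 0.87, Nt5e from -0.90 to 0.23 and Adora2b from -0.38 to 0.044. In MS− versus FBS, Entpd1 ranged from -1.41 to 1.21, Nt5e from -0.83 to 0.31, Ada from -0.29 to 0.41 and Slc29a1 from -0.18 to 0.76. Leaving out a library left a group with 1, which is then assumed to vary like the others. With no filter, limma gave Entpd2, Adora1 and Adora2a adjusted p of 0.218 to 1 over the 3 comparisons, from few reads, and Adora3 had none.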

Other observations

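The list of purine salvage and oxidation genes held 5 tested genes (Pnp, Hprt1, Aprt, Gda and Xdh). Not all of them deal with the inosine and hypoxanthine that follow deamination, since Aprt acts on adenine and Gda on guanine. All 5 had positive log2 fold changes with either rat serum against FBS, with medians of 0.53 in MS+ and 0.58 in MS−. None passed the adjusted threshold in limma, and with the block 3 did against FBS in MS+ (28.2% of all features) and 3 in MS− (20.5%). They were Pnp, Gda and Xdh both times, and the counts of Xdh are uncertain, as its row overlaps that of Srd5a2. Both comparisons share the FBS libraries. Between MS+ and MS− the median was 0.030 and none was called with or without the block.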
